A study of Mus musculus with 22 samples.

Results

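The beta-catenin destruction complex genes described here are 8 genes: the scaffolds Apc, Axin1 and Amer1, the kinases Gsk3a, Gsk3b and Csnk1a1, and the ubiquitin ligase receptors Btrc and Fbxw11. They were taken by gene symbol from the array annotation, keeping probe sets that carry a single symbol. All 8 were measured, among 18193 genes, and they hold 30 of the 34945 probe sets with 1 symbol. For each gene, the probe set whose mean over the 22 arrays was highest stands for it, and the other probe sets are given beside it. Expression was measured in Rex1GFPd2 cells, a mouse embryonic stem (ES) cell line that carries a short-lived fluorescent reporter of the naive-state gene Rex1. The medium 2i combines PD0325901 (PD), which inhibits the kinase MEK, with CHIR99021 (CHIR), which inhibits the GSK3 kinases. The 2i control arm holds 7 arrays of cells kept in 2i, of which 4 received control siRNA 1 and 3 control siRNA 2. The PD-only control arm holds 7 arrays with the same siRNAs in the same numbers, from cells moved 24 hours after transfection to medium with PD and no CHIR. The YAP/TAZ siRNA arm holds 8 arrays, 4 for each of 2 siRNA mixes against YAP and TAZ, moved to PD-only medium in the same way. All cells carried an siRNA, were exposed to PD, and were harvested 72 hours after transfection. No group in 2i received YAP/TAZ siRNA. Loss of CHIR and the change of medium cannot be told apart, since a change of medium is given for the PD-only arms alone. The labels call the arrays biological replicates without naming separate days, so the p-values measure the spread between these arrays.

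The destruction complex is the machine that keeps cytoplasmic beta-catenin low when no Wnt signal is present. Axin and APC hold beta-catenin beside casein kinase 1 alpha and GSK3, which phosphorylate it in turn, and the phosphorylated protein is then read by beta-TrCP, the substrate receptor of an SCF ubiquitin ligase that sends it to the proteasome. Wnt ligands disarm the complex at the membrane, and CHIR does so by blocking GSK3. In mouse ES cells the beta-catenin that accumulates supports self-renewal. The title of the series places cytoplasmic YAP and TAZ in this complex, and the arrays address whether transcript levels follow removal of CHIR and loss of YAP and TAZ. Transcript arrays do not measure the assembly or activity of the complex.

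The arms differed in more than these genes. Both targets fell in YAP/TAZ siRNA cells against PD-only control, Yap1 by 1.27 ± 0.03 (SE) and Wwtr1, which encodes TAZ, by 1.04 ± 0.03 on the log2 scale (limma's adjusted p = 2.61e-18 and 5.32e-17). All 8 ES cell markers had a mean at or above that of the median gene in each arm, and their summed level ran from 15.60 to 15.69 (log2) in 2i control, 15.09 to 15.14 in PD-only control and 15.41 to 15.45 with YAP/TAZ siRNA. Against PD-only control, 7 of the 8 were called higher in 2i and 6 with YAP/TAZ siRNA, and 1 was called lower in each. The summed level of 8 fibroblast markers ran from 10.8 to 10.9 (log2) in PD-only control, against 7.76 to 7.98 in 2i control and 7.95 to 8.11 with YAP/TAZ siRNA. The sums of 6 primitive endoderm markers ran from 8.66 to 8.91 in PD-only control, 7.42 to 7.61 in 2i control and 7.38 to 7.62 with YAP/TAZ siRNA. Those of 6 trophoblast markers ran from 10.5 to 10.8, 9.17 to 9.36 and 10.3 to 10.6 in the same order, and those of 4 neural markers from 8.51 to 8.60, 7.84 to 8.12 and 8.38 to 8.53. Against PD-only control, 7 fibroblast and 3 primitive endoderm markers were called lower in 2i, 5 and 2 with YAP/TAZ siRNA, and none higher. Of the trophoblast markers 1 was higher and 4 lower in 2i, and 2 and 3 with YAP/TAZ siRNA. Of the neural markers 1 was higher and 2 lower in 2i, and 1 each with YAP/TAZ siRNA. The brightest genes weigh most in a sum. Krt7 averaged 9.01, 4.47 and 4.7 and Tfap2c 9.33, 8.6 and 10.03 in the order used above. Of the primitive endoderm markers, Dab2 averaged 8.04, 4.97 and 4.465, and Sox7 3.75, 3.70 and 3.77. Of the fibroblast markers, Col1a2 averaged 9.73, 5.16 and 5.24, and Thy1 6.06, 5.55 and 6.14. In PD-only control, 3 fibroblast markers and 1 primitive endoderm marker had a mean at or above that of the median gene, and 0 in the other arms. In bulk RNA, fewer cells of a type and less RNA per cell cannot be told apart. The 3′ minus 5′ value of the Actb control probe sets, which grows as RNA degrades, was 0.66 to 0.75 in PD-only control, 0.87 to 1.19 in 2i control and 0.88 to 1.07 with YAP/TAZ siRNA. The fibroblast and primitive endoderm sums and the Actb value set PD-only control apart from the other arms, the trophoblast and neural sums set 2i control apart while the PD-only arms overlapped, and the ES cell sums separated all 3 arms. The part of the marker genes in the differences below was not tested.

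The destruction complex genes changed little in either comparison. In 2i control against PD-only control, 4 of 8 passed limma's test at an adjusted p of 0.05, beside 58% of all genes. Of the 4, 3 were higher in 2i (Apc, Amer1 and Btrc; 31.3% of all genes were called higher) and 1 was lower (Csnk1a1; 26.7% of all genes were called lower). With YAP/TAZ siRNA against PD-only control, 6 of 8 were called, beside 61.8% of all genes. Of the 6, 3 rose (Apc, Axin1 and Btrc; 35.5% of all genes) and 3 fell (Amer1, Gsk3b and Csnk1a1; 26.3% of all genes). Both shares are near the background, and both comparisons use the same PD-only control arrays.

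The sizes were small too. The median absolute log2 difference of the 8 genes was 0.09 in 2i and 0.13 with YAP/TAZ siRNA, against 0.15 and 0.17 over all genes. In 2i no member reached an absolute difference of 0.5, which 16.1% of all genes did, and with YAP/TAZ siRNA only Btrc did, against 17.2% of all genes. The median signed difference was 0.03 and 0.04, against 0.04 and 0.06 over all genes. In the distribution of differences, Btrc lay out on the high side in both comparisons, with 19.9% and 15.9% of genes further from 0. Axin1, Gsk3a and Fbxw11 lay near its middle.

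**Figure D1:**
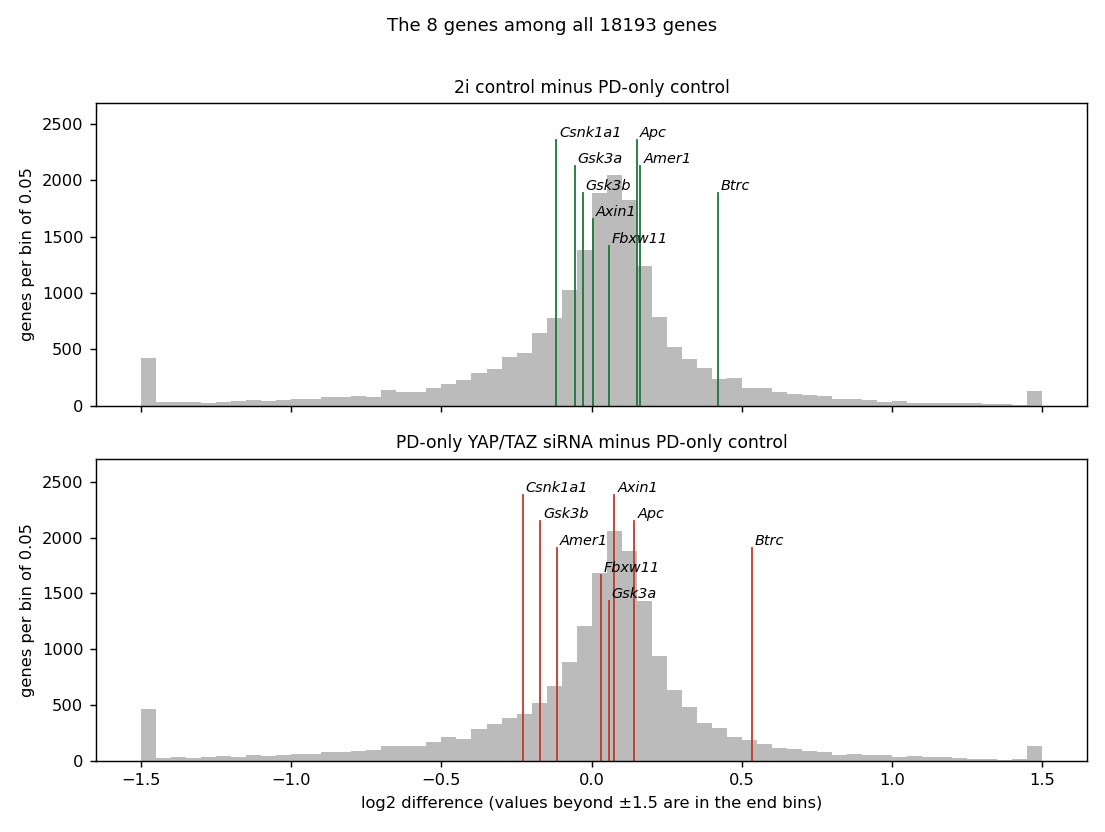
The histograms show the log2 differences of all 18193 genes (values beyond the axis are in the end bins), with 2i control minus PD-only control above and YAP/TAZ siRNA minus PD-only control below, and the lines mark the 8 genes. Btrc, at 0.42 and 0.53, stands furthest from 0 of the 8.

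For some members the direction or call also depended on how the arrays were scaled. When each array was shifted to one median over genes, log2 differences moved by 0.12 for 2i and 0.14 for YAP/TAZ siRNA, and 75.2% and 77.8% of calls were then higher, against 54% and 57.4% as deposited. This median is taken over the chosen probe sets. The median over all probe sets of an array differed less, with arm means of 5.52 in 2i control, 5.55 in PD-only control and 5.52 with YAP/TAZ siRNA. Apc and Btrc were higher and Csnk1a1 lower with YAP/TAZ siRNA under either scaling. The lower value of Csnk1a1 in 2i became 0.00 and that of Amer1 with YAP/TAZ siRNA became 0.02. The shift also made calls: Axin1 (0.12; adjusted p = 0.000834) and Fbxw11 (0.18; adjusted p = 4.84e-06) were then higher in 2i, and Gsk3a (0.19; adjusted p = 6.33e-05) and Fbxw11 (0.17; adjusted p = 5.72e-06) with YAP/TAZ siRNA. The median difference over all genes, 0.04 and 0.06 as deposited, moves further up under this shift. Quantile normalization of the deposited values instead left 55.2% and 58.3% of calls higher. Csnk1a1 then stayed lower in 2i (-0.14; adjusted p = 8.51e-06), and Axin1 (0.02) and Fbxw11 (0.04) were not called there. Amer1 with YAP/TAZ siRNA was then at -0.06 and not called (adjusted p = 0.263). With that Actb difference entered as a covariate, Apc, Btrc and Csnk1a1 kept their calls and directions in both comparisons, as the values below show. The Actb range of PD-only control overlapped that of neither other arm. Calls kept or lost with this covariate against PD-only control, here and below, therefore cannot separate RNA quality from the arm.

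Among the scaffolds, Apc was higher in both arms than in PD-only control. Apc encodes the large protein that binds beta-catenin and Axin, and its loss stabilises beta-catenin in intestinal tumours. Its log2 level had a lowest, median and highest value of 10.43, 10.45 and 10.53 in 2i control, of 10.27, 10.29 and 10.38 in PD-only control, and of 10.37, 10.46 and 10.51 with YAP/TAZ siRNA. Every 2i array lay above every PD-only control array, and the YAP/TAZ siRNA arrays overlapped PD-only control by its highest array alone. The difference was 0.15 ± 0.03 (SE) in 2i, an 11% higher level (limma's adjusted p = 5.55e-05), and 0.14 ± 0.03 with YAP/TAZ siRNA (adjusted p = 6.65e-05). YAP/TAZ siRNA and 2i arrays differed by -0.01 on the log2 scale (95% interval -0.06 to 0.05; adjusted p = 0.823), so these neighbours in the order could not be separated. With the Actb covariate the differences from PD-only control were 0.20 and 0.19 (adjusted p = 0.00237 and 0.00312).

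Apc had 4 probe sets, and all 4 were called higher in 2i when probe sets were tested one by one. The second, 1435543_at, had levels of 9.42 to 9.55 in 2i control, 9.02 to 9.13 in PD-only control and 9.33 to 9.44 with YAP/TAZ siRNA. Neither arm overlapped PD-only control there, and the differences were 0.39 ± 0.03 and 0.30 ± 0.03 (adjusted p = 4.46e-10 and 1.15e-08 over probe sets). The third, 1450056_at, differed by 0.20 ± 0.04 and 0.27 ± 0.04. The dimmest, 1420957_at, differed by 0.37 ± 0.10 in 2i, and by 0.14 ± 0.10 with YAP/TAZ siRNA, which did not pass (adjusted p = 0.228). The direction for Apc was thus shared by its probe sets, while the size ran from 0.14 to 0.39.

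Axin1, the limiting scaffold on which the other parts assemble, differed little between the arms on the deposited scale. Its log2 levels had a lowest, median and highest value of 8.38, 8.47 and 8.53 in 2i control, 8.39, 8.46 and 8.55 in PD-only control, and 8.48, 8.54 and 8.62 with YAP/TAZ siRNA. All 3 arms overlapped. The difference was 0.00 ± 0.03 in 2i (95% interval -0.06 to 0.07; adjusted p = 0.946). With YAP/TAZ siRNA it was 0.08 ± 0.03 (adjusted p = 0.0386), a call that ended when any of 8 single arrays was left out (adjusted p up to 0.0892) and with the Actb covariate (adjusted p = 0.376). Its other probe set, 1426967_at, differed by -0.02 ± 0.04 in 2i and by 0.10 ± 0.04 with YAP/TAZ siRNA, and neither passed. Tested as a single probe set, the chosen one did not pass with YAP/TAZ siRNA either (adjusted p = 0.0502). With arrays shifted to one median, Axin1 was called higher in both comparisons (0.12 and 0.21; adjusted p = 0.000834 and 9.75e-07).

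Amer1, the WTX tumour suppressor protein that tethers APC and Axin at the plasma membrane, was called in opposite directions in 2i and with YAP/TAZ siRNA. Its log2 levels had a lowest, median and highest value of 7.46, 7.67 and 7.82 in 2i control, 7.42, 7.51 and 7.56 in PD-only control, and 7.29, 7.40 and 7.50 with YAP/TAZ siRNA. The order was thus 2i, PD-only control, YAP/TAZ siRNA, with overlap between each pair. The difference from PD-only control was 0.16 ± 0.04 in 2i (adjusted p = 0.00164) and -0.12 ± 0.04 with YAP/TAZ siRNA (adjusted p = 0.0139). The difference of YAP/TAZ siRNA from 2i was -0.28 ± 0.04 (adjusted p = 3.87e-06). With the Actb covariate the differences from PD-only control were 0.04 (adjusted p = 0.678) and -0.24 (adjusted p = 0.00671), and the mean of the probe sets gave -0.03 with YAP/TAZ siRNA (adjusted p = 0.548). The covariate left the difference of YAP/TAZ siRNA from 2i at -0.28 (adjusted p = 1.51e-06).

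The 2i value of Amer1 was also compared between the control siRNAs. With control siRNA 1 it was 0.27, and with control siRNA 2 it was 0.05. That contrast was 0.22 ± 0.08 (unadjusted p = 0.0141; limma's adjusted p = 0.929 over all genes) and so did not pass. Over all genes, 5.22% had an unadjusted p under 0.05 for it. The other probe set, 1453774_at, was also higher in 2i, by 0.26 ± 0.08 (adjusted p = 0.00959), and lower with YAP/TAZ siRNA than in 2i (-0.21 ± 0.08; adjusted p = 0.0328). It did not share the fall against PD-only control (0.05 ± 0.08; adjusted p = 0.602). Its contrast between the control siRNAs was -0.02 ± 0.16 (adjusted p = 0.999).

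**Figure D2:**
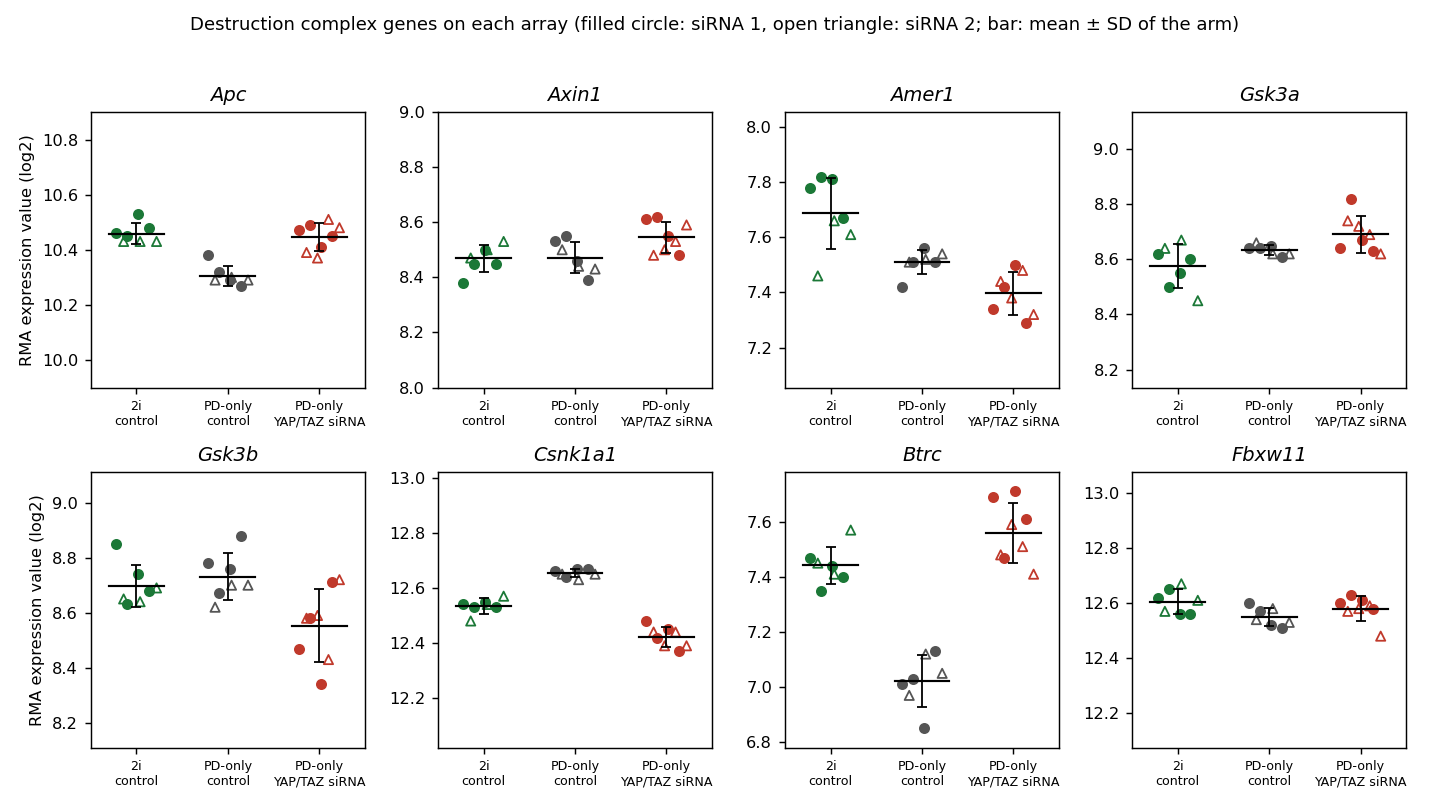
Each point is the RMA expression value (log2) of 1 array for the chosen probe set of a gene, by arm, with the mean ± SD of the arm as a bar and every panel spanning the same log2 range. Btrc separates PD-only control (at most 7.13) from the other arms (at least 7.35), Csnk1a1 falls in steps from PD-only control to 2i to YAP/TAZ siRNA, and Axin1, Gsk3a and Fbxw11 overlap throughout.

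The GSK3 kinases, the targets of CHIR, are encoded by Gsk3a and Gsk3b and phosphorylate beta-catenin at the residues that beta-TrCP reads. Gsk3a had a single probe set, with a lowest, median and highest log2 level of 8.45, 8.60 and 8.67 in 2i control, 8.61, 8.64 and 8.66 in PD-only control, and 8.62, 8.68 and 8.82 with YAP/TAZ siRNA. The arms overlapped, and PD-only control was the tightest, inside the spread of 2i. Neither difference from PD-only control passed: -0.06 ± 0.04 in 2i (95% interval -0.13 to 0.02; adjusted p = 0.197) and 0.06 ± 0.04 with YAP/TAZ siRNA (95% interval -0.02 to 0.13; adjusted p = 0.173). Set against 2i, YAP/TAZ siRNA was higher by 0.11 ± 0.04, an 8.24% difference (adjusted p = 0.0112).

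Gsk3b was lower with YAP/TAZ siRNA. Its chosen probe set had a lowest, median and highest log2 level of 8.63, 8.68 and 8.85 in 2i control, 8.62, 8.70 and 8.88 in PD-only control, and 8.34, 8.58 and 8.72 with YAP/TAZ siRNA. The arms overlapped, with the YAP/TAZ siRNA arrays the most scattered. The difference was -0.17 ± 0.05 with YAP/TAZ siRNA (adjusted p = 0.00757) and -0.03 ± 0.05 in 2i (95% interval -0.14 to 0.08; adjusted p = 0.653). With the Actb covariate the YAP/TAZ siRNA difference was -0.11 and did not pass (adjusted p = 0.402), and it was -0.03 (adjusted p = 0.56) with arrays shifted to one median.

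The 6 probe sets of Gsk3b differed in which comparison they were called. In 2i, 4 of them were called lower (1454958_at, 1451020_at, 1439949_at and 1439931_at, by -0.15 to -0.31), and the chosen one and 1434439_at were not. With YAP/TAZ siRNA, 3 were called lower (1437001_at, 1454958_at and 1434439_at, by -0.17 to -0.18) and 3 were not. The sharpest case was 1439931_at, with levels of 6.05 to 6.35 in 2i control, 6.45 to 6.64 in PD-only control and 6.46 to 6.62 with YAP/TAZ siRNA. There 2i stood below both other arms without overlap, by -0.31 ± 0.04 from PD-only control (adjusted p = 1.21e-06), while YAP/TAZ siRNA differed from PD-only control by 0.01 ± 0.04 (adjusted p = 0.788). No probe set of Gsk3b was called higher than PD-only control in either comparison. Averaged over its probe sets, Gsk3b was lower in 2i (-0.17; adjusted p = 9.31e-07) and with YAP/TAZ siRNA (-0.11; adjusted p = 6.82e-05).

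The promoters of both GSK3 genes are shown because Gsk3b was called with YAP/TAZ siRNA and its close relative Gsk3a was not, although their difference was not tested. RefSeq's promoter table (GRCm38.p6) held 3 of the 8 members, Gsk3a, Gsk3b and Fbxw11. The lines give the 250 bases before each gene's start, 5′ to 3′ on the gene's strand, and capitals mark CCAAT and its reverse complement. Gsk3a lies at chr7:25237852-25238101 on the minus strand and Gsk3b at chr16:38088751-38089000 on the plus strand.
Gsk3a: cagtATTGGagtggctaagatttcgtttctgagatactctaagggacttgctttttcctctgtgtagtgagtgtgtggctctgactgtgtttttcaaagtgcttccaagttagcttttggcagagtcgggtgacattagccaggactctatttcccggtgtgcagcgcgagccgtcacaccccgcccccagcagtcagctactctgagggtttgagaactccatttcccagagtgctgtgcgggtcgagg
Gsk3b: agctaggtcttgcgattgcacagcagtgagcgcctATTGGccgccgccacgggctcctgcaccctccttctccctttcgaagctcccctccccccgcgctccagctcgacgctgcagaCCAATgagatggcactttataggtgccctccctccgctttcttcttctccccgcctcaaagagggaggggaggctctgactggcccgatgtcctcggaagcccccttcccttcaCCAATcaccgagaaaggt
On both strands, the TEAD motif GGAATG was in neither window, against 12.6% of all 32851 windows. Of the TCF/LEF motifs, CTTTGAA occurred once in Gsk3a, on the reverse strand, and not in Gsk3b (4.46% of windows), and CTTTGAT was in neither (3.21% of windows). CCAAT, bound by NF-Y, occurred 3 times in Gsk3b and 1 time in Gsk3a, and in 33.9% of windows at least once. All of these motifs were chosen after the sequences had been seen. These matches describe the letters of the windows only.

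Csnk1a1, which encodes the casein kinase 1 alpha that primes beta-catenin for GSK3, was lower in both arms than in PD-only control and lowest with YAP/TAZ siRNA. Its lowest, median and highest log2 levels were 12.48, 12.54 and 12.57 in 2i control, 12.63, 12.65 and 12.67 in PD-only control, and 12.37, 12.43 and 12.48 with YAP/TAZ siRNA. PD-only control stood above both other arms without overlap, and those arms touched at 12.48. The difference was -0.12 ± 0.02 in 2i (adjusted p = 0.000125) and -0.23 ± 0.02 with YAP/TAZ siRNA (adjusted p = 9.64e-09), where the level fell by 14.7%. YAP/TAZ siRNA was below 2i by -0.11 ± 0.02 (adjusted p = 0.000197). With the Actb covariate the values from PD-only control were -0.18 and -0.29 (adjusted p = 0.00069 and 3e-06). The YAP/TAZ mixes gave -0.22 and -0.24.

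The probe sets of Csnk1a1 were not all called. Of 5 probe sets, 4 were called lower with YAP/TAZ siRNA, by -0.23 to -0.37, and 3 in 2i. The second brightest, 1428537_at, had levels of 11.23 to 11.35 in 2i control, 11.23 to 11.34 in PD-only control and 10.86 to 10.99 with YAP/TAZ siRNA. The control arms coincided there, and every YAP/TAZ siRNA array was lower than any of them. Its difference was -0.37 ± 0.03 with YAP/TAZ siRNA (adjusted p = 6.61e-11) and 0.01 ± 0.03 in 2i (adjusted p = 0.73). The dimmest, 1451497_at, differed by 0.07 in both comparisons and was not called.

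**Figure D3:**
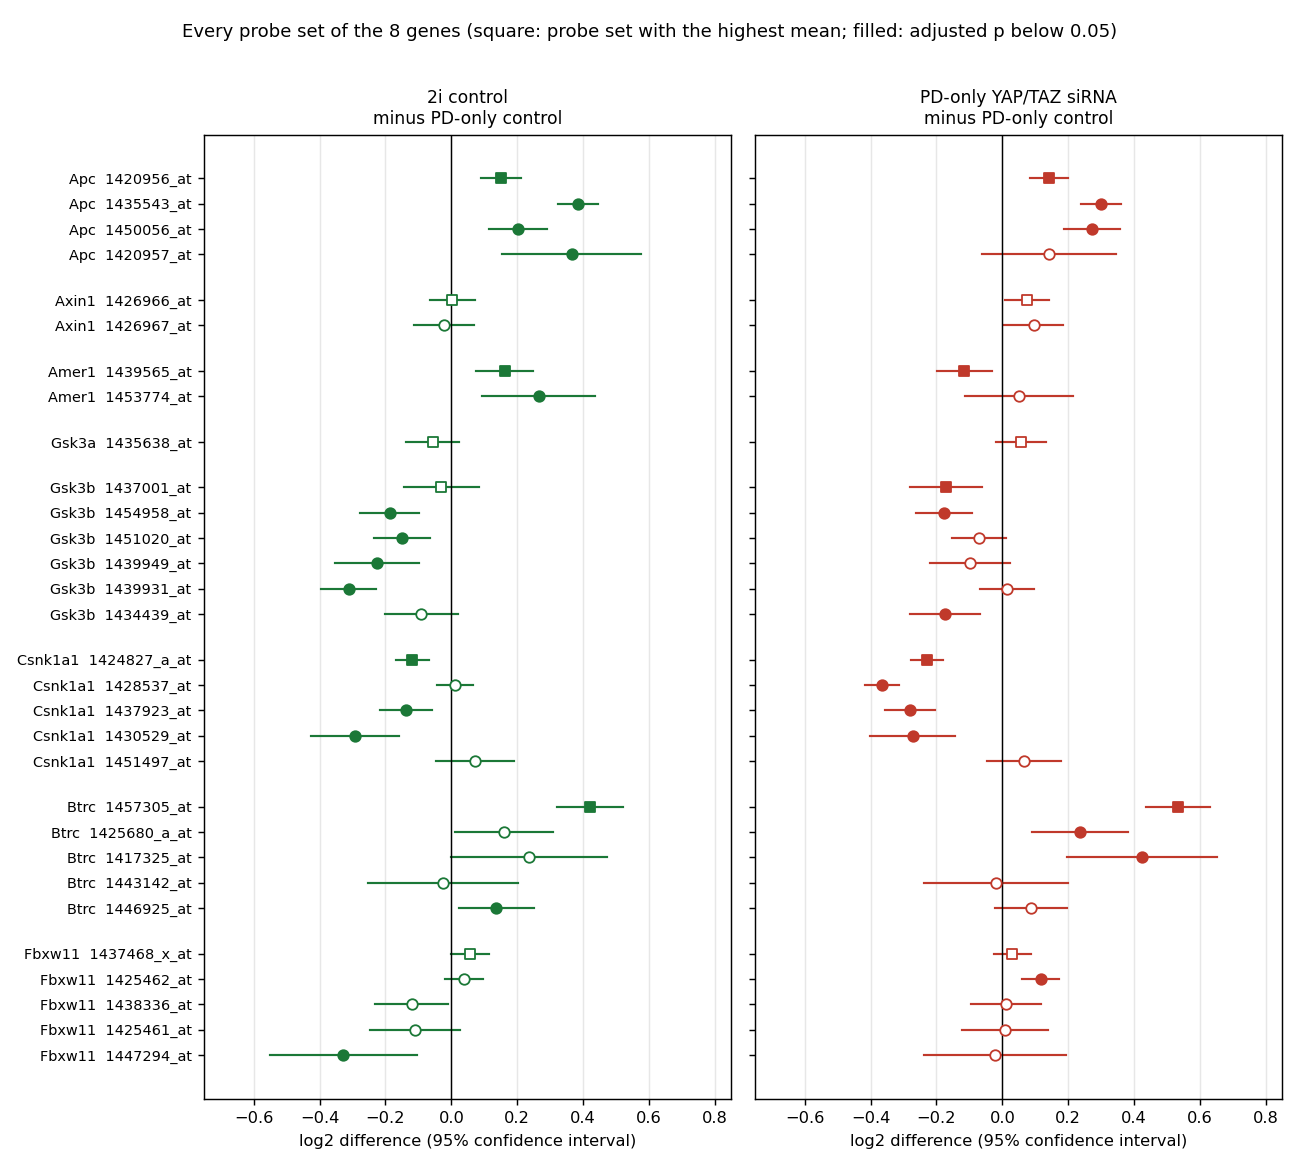
The points give the log2 difference of each of the 30 probe sets with its 95% confidence interval, in 2i control (left) and with YAP/TAZ siRNA (right), each minus PD-only control. Filled symbols passed an adjusted p of 0.05 over all single-symbol probe sets, and squares are the chosen probe sets. The probe sets of Apc lie above 0 on both sides, and those of Gsk3b and Csnk1a1 spread from near 0 to lower values.

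Btrc, which encodes beta-TrCP, the F-box receptor that recognises phosphorylated beta-catenin, showed the largest change of the 8 genes in both comparisons. Its lowest, median and highest log2 levels were 7.35, 7.44 and 7.57 in 2i control, 6.85, 7.03 and 7.13 in PD-only control, and 7.41, 7.55 and 7.71 with YAP/TAZ siRNA. PD-only control lay below both other arms without overlap, and those arms overlapped each other. The level was 1.34-fold higher in 2i (log2 0.42 ± 0.05; adjusted p = 1.32e-07) and 1.45-fold higher with YAP/TAZ siRNA (0.53 ± 0.05; adjusted p = 1.85e-09). Control siRNAs 1 and 2 gave 0.41 and 0.43, and the YAP/TAZ mixes 0.59 and 0.47. With the Actb covariate the differences were 0.31 and 0.42 (adjusted p = 0.0047 and 0.00032). YAP/TAZ siRNA exceeded 2i by 0.11 ± 0.05 (adjusted p = 0.0458), a call that ended when any of 14 single arrays was left out (adjusted p up to 0.12).

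Btrc had 5 probe sets, and in 2i the chosen one and 1446925_at (0.14 ± 0.05; adjusted p = 0.0387) were called. The latter was the dimmest of the 5, with arm means from 3.87 to 4.01, against 6.635 for the median gene. The brighter 1425680_a_at and 1417325_at did not pass in 2i (adjusted p = 0.0674 and 0.0871). With YAP/TAZ siRNA 3 were called higher, among them 1425680_a_at by 0.24 ± 0.07 and 1417325_at by 0.42 ± 0.11. The probe set 1443142_at differed by -0.03 and -0.02 and was not called. Between YAP/TAZ siRNA and 2i, none of the 5 passed when tested singly (adjusted p = 0.053 for the chosen one). The mean of the probe sets gave 0.19 in 2i and 0.25 with YAP/TAZ siRNA, so the size of the change depended on the probe set.

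Fbxw11, which encodes the second beta-TrCP protein and can stand in for the first, was not called in either comparison on the deposited scale. Its lowest, median and highest log2 levels were 12.56, 12.61 and 12.67 in 2i control, 12.51, 12.54 and 12.60 in PD-only control, and 12.48, 12.59 and 12.63 with YAP/TAZ siRNA. All arms overlapped. The difference was 0.06 ± 0.03 in 2i (95% interval 0.00 to 0.11; adjusted p = 0.0716) and 0.03 ± 0.03 with YAP/TAZ siRNA (95% interval -0.02 to 0.08; adjusted p = 0.317). With arrays shifted to one median it was called higher in both (0.18 and 0.17; adjusted p = 4.84e-06 and 5.72e-06). A difference between Fbxw11 and Btrc was not tested. The chosen probe set has the suffix _x_at, which marks probes that may bind other transcripts. The next brightest, 1425462_at, differed by 0.04 ± 0.03 in 2i and was higher with YAP/TAZ siRNA by 0.12 ± 0.03 (adjusted p = 0.000771). The dimmest, 1447294_at, was lower in 2i (-0.33 ± 0.11; adjusted p = 0.0134). The other 2, 1438336_at and 1425461_at, were not called in either comparison. Against 2i, 3 of the 5 probe sets were called higher with YAP/TAZ siRNA (1425462_at, 1438336_at and 1447294_at, by 0.08 to 0.31), and the chosen one was not (-0.03 ± 0.03; adjusted p = 0.427).

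Counted by probe set, 16 of the 30 passed in 2i against PD-only control, 8 higher and 8 lower, beside 54.5% of all single-symbol probe sets. With YAP/TAZ siRNA 15 passed, 7 higher and 8 lower, beside 56.6%. Between YAP/TAZ siRNA and 2i, 13 passed, beside 44.3%. Probe sets of 1 gene share its transcripts and are not replicates.

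The YAP/TAZ siRNA arm was also set against control cells in 2i, to see which members still differed. Of the 8, 5 passed, beside 48.3% of all genes: 2 higher with the siRNA (Gsk3a and Btrc; 25.5% of all genes) and 3 lower (Amer1, Gsk3b and Csnk1a1; 22.8% of all genes). None differed by 0.5 or more, which 8.22% of all genes did. Amer1 had the largest difference, at -0.28. With siRNA 2 of each arm alone neither gene called higher passed: Gsk3a stayed at 0.11 (adjusted p = 0.195), and Btrc went to 0.02 (adjusted p = 0.831). The call of Gsk3b ended without any 1 of 5 arrays: 2i control siRNA 1 replicate A, 2i control siRNA 2 replicate C, YAP/TAZ siRNA 1 replicates A and C, or YAP/TAZ siRNA 2 replicate C (-0.11 to -0.13; adjusted p up to 0.073). It also ended with siRNA 1 of each arm alone (-0.20; adjusted p = 0.0553), with siRNA 2 alone (-0.08; adjusted p = 0.376) and with arrays shifted to one median (-0.12; adjusted p = 0.0617). Its direction against 2i also depended on the probe set: 1439931_at was higher with YAP/TAZ siRNA by 0.33 ± 0.04 (adjusted p = 5.97e-07), and the mean of the 6 probe sets was called higher (0.05; adjusted p = 0.0417).

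Members were also compared between the siRNAs of 1 kind. Between the YAP/TAZ mixes limma called 0 of 18193 genes, with 648 at an unadjusted p under 0.05, and no member (the largest member difference was Btrc at 0.12, with a 95% interval of -0.01 to 0.25). For the effect of 2i with control siRNA 1 against control siRNA 2 it also called 0 genes, with 949 at an unadjusted p under 0.05. With siRNA 2 of each arm alone, the calls of Amer1 (adjusted p = 0.523) and Csnk1a1 (adjusted p = 0.0502) ended in 2i, and those of Axin1, Amer1 and Gsk3b ended with YAP/TAZ siRNA (adjusted p = 0.215, 0.115 and 0.249). With siRNA 1 alone those of Axin1 and Amer1 with YAP/TAZ siRNA ended too (adjusted p = 0.161 and 0.0929). The residual SD between arrays of a group ran from 0.03 for Csnk1a1 to 0.10 for Gsk3b, against a median of 0.10 over all genes. The smallest change called against PD-only control, 0.08 ± 0.03 for Axin1 with YAP/TAZ siRNA, stands beside a residual SD of 0.05 for that gene.

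By correlation over the 22 arrays, the genes most like each member were Zfp930 and Tnk2 for Btrc (Pearson r = 0.96 and 0.95), Pls3 and Sowahb for Csnk1a1 (0.98 and 0.97), and Oga and Zfyve26 for Apc (0.91 and 0.90). They were sought among 8875 named genes at or above the median level. Next came Prps1l3 and Plekhg1 for Amer1 (0.90 and 0.89), Ciapin1 and Dpf2 for Gsk3a (0.88 and 0.83) and Cldnd1 and Stau2 for Gsk3b (0.82 and 0.78). Gmeb2 and Acsf3 for Axin1 (both 0.79) and Speer4f1 and Alkbh4 for Fbxw11 (0.77 and 0.73) were the least alike. These correlations carry the differences between arms. With arm means removed, r was 0.74 and 0.55 for Btrc, 0.59 and 0.56 for Csnk1a1, and 0.60 and 0.49 for Apc.

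The other genes of the pathway are given by group, to be read beside the 31.3% of all genes called higher and 26.7% called lower in 2i, and the 35.5% and 26.3% with YAP/TAZ siRNA. Each is represented by its brightest single-symbol probe set alone, and any other probe sets are not shown. The shift to one median over genes adds 0.12 and 0.14 to every value of these comparisons. It exceeds the falls of Ctnnb1, Csnk1g2, Cul1, Ppp2ca and Ppp2r5d (both -0.11) with YAP/TAZ siRNA, and the lower value of Ppp2r1b in 2i (-0.05). Among other scaffolds, the substrate and YAP and TAZ, 2 of 7 were higher in 2i (Axin2 and Apc2) and 2 lower (Yap1 and Wwtr1), so that 57.1% were called, beside 58% of all genes. Axin2, the second Axin and itself a target of beta-catenin, had levels of 9.02 to 9.13 in 2i control, 7.01 to 7.35 in PD-only control and 8.86 to 9.09 with YAP/TAZ siRNA, without overlap of PD-only control with either arm. It was higher by 1.94 ± 0.05 in 2i and by 1.82 ± 0.04 with YAP/TAZ siRNA (adjusted p = 1.47e-18 and 1.97e-18). Apc2, a relative of Apc, was higher by 0.19 ± 0.05 and 0.21 ± 0.05. The beta-catenin gene Ctnnb1 differed by -0.03 ± 0.02 in 2i (adjusted p = 0.287) and fell by 0.08 ± 0.02 with YAP/TAZ siRNA (adjusted p = 0.00141). The remaining 2 genes of the group were not called in either comparison.

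Of the other casein kinase 1 genes, 4 of 5 were lower in 2i and 4 of 5 with YAP/TAZ siRNA, and none was higher, beside 26.7% and 26.3% of all genes called lower. Their median difference was -0.19 in 2i and -0.41 with YAP/TAZ siRNA, against 0.04 and 0.06 over all genes. Csnk1g3, of the membrane-bound gamma family that phosphorylates Lrp6, had levels of 9.12 to 9.39 in 2i control, 9.41 to 9.56 in PD-only control and 8.69 to 8.91 with YAP/TAZ siRNA. The 3 arms did not overlap, and the differences from PD-only control were -0.27 ± 0.04 and -0.69 ± 0.04 (adjusted p = 2.23e-06 and 7.13e-13). Csnk1e fell by 0.49 ± 0.03, Csnk1d by 0.41 ± 0.03 and Csnk1g2 by 0.11 ± 0.03 with YAP/TAZ siRNA. Csnk1g1 was called only against 2i, where YAP/TAZ siRNA was higher by 0.10 ± 0.03 (adjusted p = 0.0112).

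The core of the SCF ligase, in which Btrc and Fbxw11 serve as receptors, was lower in 2i for 3 of 4 genes: the adaptor Skp1 (-0.19 ± 0.02), the cullin Cul1 (-0.17 ± 0.03) and the ubiquitin-conjugating enzyme Cdc34 (-0.28 ± 0.03), beside 26.7% of all genes called lower. With YAP/TAZ siRNA Skp1 rose by 0.06 ± 0.02 and Cul1 fell by 0.11 ± 0.03. The RING subunit gene Rbx1 differed by 0.15 ± 0.07 and -0.02 ± 0.07, and neither passed. Of 9 genes of the phosphatase PP2A, which acts against the kinases, 3 were higher and 3 lower in 2i, and 1 was higher and 5 lower with YAP/TAZ siRNA. That is 66.7% called in each, near the 58% and 61.8% of all genes. The regulatory subunit gene Ppp2r5b had levels of 6.58 to 6.91 in 2i control, 7.14 to 7.43 in PD-only control and 6.58 to 6.97 with YAP/TAZ siRNA. Both arms lay below PD-only control without overlap, by -0.57 ± 0.06 and -0.53 ± 0.05 (adjusted p = 1.75e-08 and 2.99e-08).

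Of 13 regulators of Axin and GSK3, 4 were higher and 4 lower in 2i, and 5 were higher and 4 lower with YAP/TAZ siRNA. The shares called, 61.5% and 69.2%, are near the 58% and 61.8% of all genes. Gskip, which binds GSK3 and protein kinase A, differed by -0.48 ± 0.04 and -0.75 ± 0.04. Frat2, which draws GSK3 away from Axin, had levels of 6.86 to 7.04 in 2i control, 7.47 to 7.67 in PD-only control and 7.64 to 7.79 with YAP/TAZ siRNA. It was lower in 2i (-0.59 ± 0.03; adjusted p = 2.35e-12) and higher with YAP/TAZ siRNA (0.17 ± 0.03; adjusted p = 6.17e-05), and these arms were 0.76 ± 0.03 apart (adjusted p = 5.42e-14). Among the Dishevelled genes, which carry the Wnt signal to the complex, Dvl1 was lower in both arms (-0.25 and -0.50) and Dvl2 higher (0.57 and 0.16). The Wnt co-receptor gene Lrp6 differed by -0.04 ± 0.03 in 2i (adjusted p = 0.311) and fell by 0.41 ± 0.03 with YAP/TAZ siRNA (adjusted p = 1.08e-10). Usp34, which encodes a deubiquitinase of Axin, rose by 0.18 ± 0.03 with YAP/TAZ siRNA (adjusted p = 8.33e-06) and differed by 0.07 ± 0.03 in 2i (adjusted p = 0.0528).

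**Figure D4:**
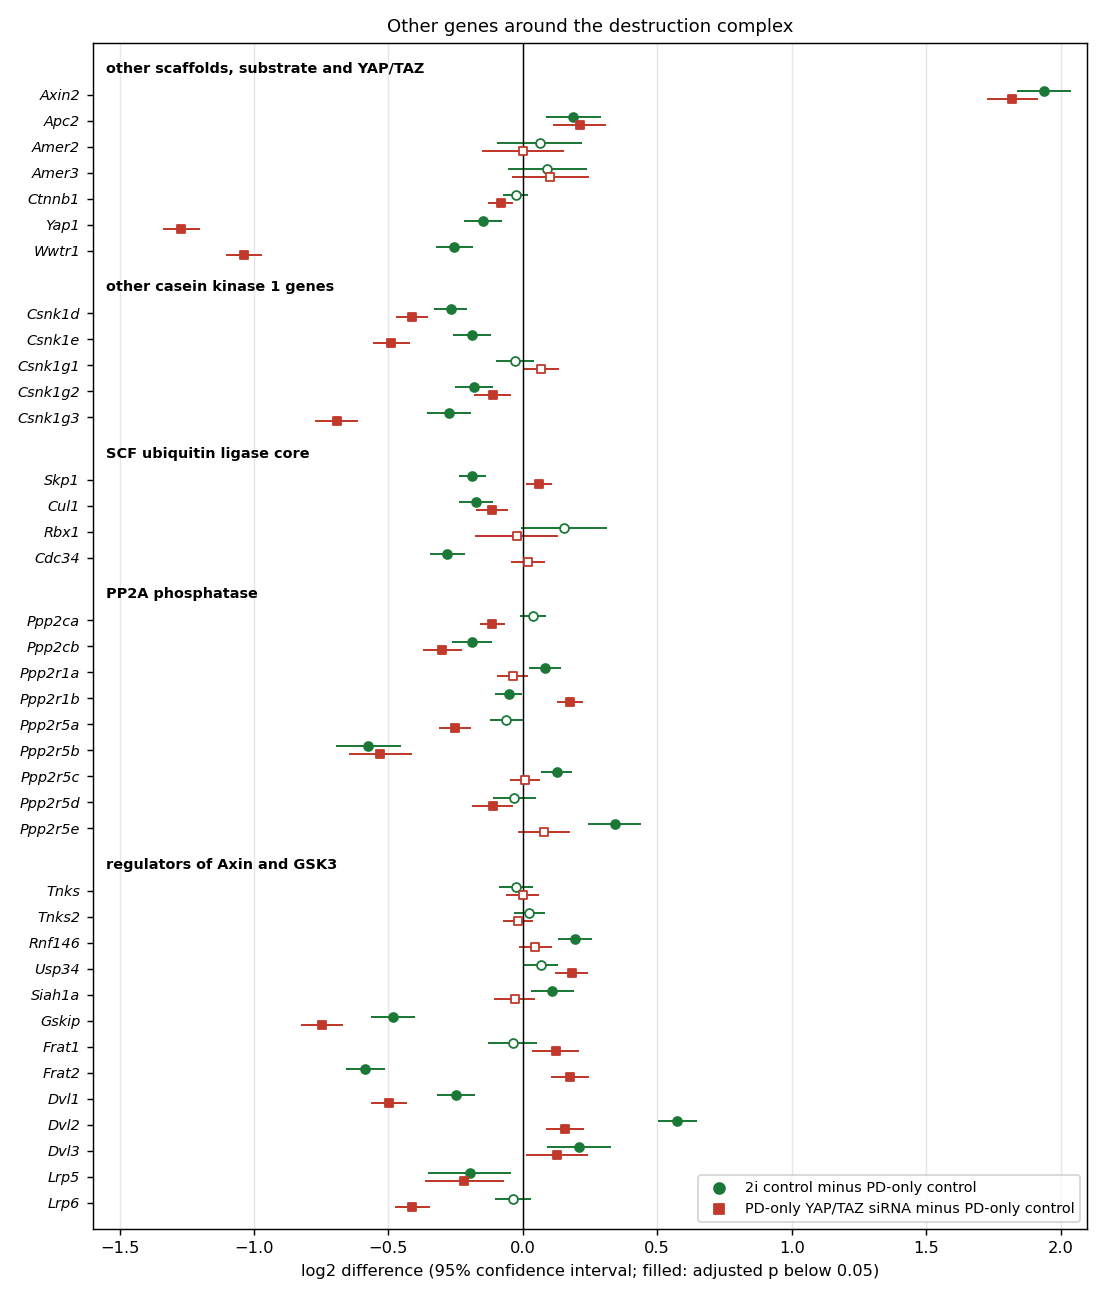
Circles (2i control) and squares (YAP/TAZ siRNA) give the log2 difference from PD-only control of 38 genes around the complex, with 95% confidence intervals and filled symbols for an adjusted p below 0.05. Axin2 stands far to the right, at 1.94 and 1.82, Yap1 and Wwtr1 far to the left with the siRNA.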

How the data were processed

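Biotin-labelled RNA of 22 samples was hybridised to Affymetrix mouse arrays, per the labels' protocols. The deposited values are log2 expression per probe set made by RMA, per the submitters' processing notes, whose version is not given in the sources used here. They run from 2.09 to 14.91 with 2 decimals. RMA makes arrays alike in distribution and gives no detection call, and background compresses differences of dim probe sets.

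Of 45101 probe sets, 34945 had 1 symbol in GEO's platform annotation, control probe sets left out, and 932 had several and were not used. limma 3.58.1 in R 4.3.3 was fitted to 18193 genes with 1 mean for each of 6 groups of medium and siRNA (lmFit and eBayes, with 16 degrees of freedom from residuals and 3.1 from the prior). Arms are averages of their siRNA groups. Calls are at a Benjamini-Hochberg adjusted p of 0.05 over all genes, and single probe sets were adjusted over all single-symbol probe sets. Errors of differences are standard errors. Intervals are not adjusted. The test was checked on simulated data. Replicate letters were not used to pair arrays in the main fit. Named were all members, Yap1, Wwtr1, called genes of the pathway lists and the 2 genes most like each member. Members and lists were chosen with earlier results of these data known. The number of arrays limits the precision. Alternatives covered probe set choice, dim genes, scaling, variance model, array weights, arrays in the fit, siRNA pooling or blocking (statmod 1.5.0), the replicate block, each array or siRNA left out, the Actb covariate and stricter calls. Figures used matplotlib 3.10.9.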

Additional observations from a re-analysis of the deposited data

Results flagged for a closer look

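Dixon's test at its 95% critical value was run on 24 sets of arrays (8 members in 3 arms), and chance alone passes it in about 1 of 20 sets. For Amer1, PD-only control siRNA 1 replicate A had a log2 level of 7.42, below the nearest PD-only control array at 7.51. For Fbxw11, YAP/TAZ siRNA 2 replicate D had 12.48, below the nearest array of its arm at 12.57. The differences from PD-only control had opposite signs in 2i and with YAP/TAZ siRNA for Amer1, and limma's test of the difference between those effects gave -0.28 (adjusted p = 3.87e-06). The same held for Gsk3a, where neither effect passed alone and their difference was 0.11 (adjusted p = 0.0112).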

How the results depend on the processing

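For Apc and Btrc in both comparisons with PD-only control, and for Csnk1a1 with YAP/TAZ siRNA, direction and call held under all 36 alternatives that kept the threshold: Apc 0.14 to 0.28 and 0.13 to 0.28, Btrc 0.19 to 0.54 and 0.25 to 0.67, Csnk1a1 -0.37 to -0.09. Leaving out each array gave 4 to 5, 5 to 6 and 3 to 6 called members in 2i, with YAP/TAZ siRNA, and between these arms, with 3 reached without YAP/TAZ siRNA 1 replicate A or C or siRNA 2 replicate C. With siRNA 2 of each arm alone, with fewer arrays, 2, 3 and 2 members and 7983, 8776 and 6453 of 18193 genes were called, and with siRNA 1 alone 4, 4 and 4 members and 9251, 9664 and 7292 genes. At an adjusted p of 0.01 the last count was 2. With an absolute difference of at least 0.5 the counts were 0, 1 and 0 members and 2927, 3130 and 1495 genes. With the replicate block, 5, 6 and 4 members were called, Fbxw11 entering in 2i (adjusted p = 0.0423) and Btrc leaving against 2i (adjusted p = 0.0729). The 51 pairs of arrays with the same letter gave correlations of deviations from -0.077 to 0.124. The 150 pairs with different letters gave -0.158 to 0.18. Of the 22 arrays, 9 correlated best with their own letter.

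Some signs turned, and the cause was not tested. In 2i, Axin1 became -0.0098 with the mean of probe sets, -0.0029 with siRNAs pooled, -0.0039 with a random block, -0.0375 with siRNA 1 alone and -0.0023 with the Actb covariate, and ranged from -0.0125 to 0.0142 with single arrays left out. Fbxw11 became -0.0924 with the mean of probe sets (adjusted p = 0.0327). Csnk1a1 became 0.0117 without _x_at, _s_at and _a_at probe sets, which moves it to 1428537_at. With arrays shifted to one median, Gsk3a became 0.0633, Gsk3b 0.09 and Csnk1a1 0.0025 in 2i, Amer1 0.0217 with YAP/TAZ siRNA, and Apc 0.0079 against 2i. Gsk3b became 0.0256 in 2i with the Actb covariate. Against 2i, Gsk3b became 0.0526 and Fbxw11 0.1209 with the mean of probe sets and Fbxw11 0.0771 without the suffixed probe sets, and all 3 passed as higher (adjusted p = 0.0417, 0.00618 and 0.0154). Fbxw11 became 0.0075 with siRNA 1, and Apc 0.0075 with siRNA 2 and from -0.0208 to 0.0025 with single arrays left out.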
